A study of Mus musculus with 6 samples.

Results

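The genes described here are 10 mouse genes for cell-surface ligands that lymphocytes read on other cells, out of 22180 genes tested on the same arrays. H60b, H60c and Ulbp1 encode ligands of NKG2D. Cd274, Pdcd1lg2, Cd80, Cd86, Cd276, Vtcn1 and Icosl encode proteins of the B7 family. The set was chosen by the measured fall of H60b, which had the 7th largest drop of all genes between PIM1 and control cells, and the other 9 were added by family. Each of the 10 had 1 probe set annotated to it alone. The values of H60b in this contrast are therefore given as a description, with no test, and the tests of the other 9 support nothing about the family as a whole.

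RNA came from mouse prostate epithelial cancer cells of Rb1F/F:Trp53F/F:PB-Cre4 mice, in which a Cre driven by the probasin promoter removes Rb1 and Trp53 in prostate epithelium. Both groups share that deletion. PIM1 cells (3 arrays) carried a lentivirus for PIM1, a serine/threonine kinase, and EV cells (3 arrays) carried the empty vector. All grew in DMEM with charcoal-stripped serum, insulin, transferrin, selenium, pituitary extract, epidermal growth factor and cholera toxin. The labels give neither the animals' age nor whether the arrays of a group came from separate cultures, transductions or clones, so any p-value here reflects the scatter among these 6 arrays alone, and that scatter could be technical. The series asked which genes differ between PIM1 and control cells of this background.

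NKG2D is an activating receptor on natural killer cells and some T cells. Its ligands, in the mouse the H60, Ulbp1 and Raet1 proteins, resemble MHC class I molecules and are known to appear on stressed, infected or transformed cells. Proteins of the B7 family bind receptors of the CD28 family on T cells. CD80 and CD86 co-stimulate through CD28 and restrain through CTLA-4, PD-L1 (Cd274) and PD-L2 (Pdcd1lg2) restrain through PD-1, and ICOS ligand (Icosl) co-stimulates through ICOS. Interferon gamma, acting through JAK and STAT proteins and IRF1, is the best known inducer of PD-L1.

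The sequence before and around the start of a gene carries elements through which such signals act, so the windows of 3 genes are shown. Icosl is the member that passed the test upward, Cd274 is the classical interferon target, and Ulbp1 is, after H60b, the NKG2D ligand gene with a probe set of its own whose groups did not overlap. They come from RefSeq (GRCm38.p6) and run 5′ to 3′ from 250 bases before to 50 bases after the start. The Icosl window is chr10:78069118-78069417 on the plus strand, that of Cd274 is chr19:29367188-29367487 on the plus strand, and that of Ulbp1 is chr10:7473428-7473727 on the minus strand. Capitals mark a GC box.
Icosl: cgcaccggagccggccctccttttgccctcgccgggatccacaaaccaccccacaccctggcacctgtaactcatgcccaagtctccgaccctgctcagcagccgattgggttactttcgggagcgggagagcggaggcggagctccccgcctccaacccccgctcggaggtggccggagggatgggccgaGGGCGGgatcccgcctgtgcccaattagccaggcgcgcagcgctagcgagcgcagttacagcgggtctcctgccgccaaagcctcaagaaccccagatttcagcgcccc
Cd274: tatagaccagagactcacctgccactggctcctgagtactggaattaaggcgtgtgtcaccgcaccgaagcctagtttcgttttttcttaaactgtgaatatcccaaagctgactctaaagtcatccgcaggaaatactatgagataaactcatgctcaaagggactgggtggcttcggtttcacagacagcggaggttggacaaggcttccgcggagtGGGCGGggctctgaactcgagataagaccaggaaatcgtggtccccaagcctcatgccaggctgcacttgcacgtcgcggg
Ulbp1: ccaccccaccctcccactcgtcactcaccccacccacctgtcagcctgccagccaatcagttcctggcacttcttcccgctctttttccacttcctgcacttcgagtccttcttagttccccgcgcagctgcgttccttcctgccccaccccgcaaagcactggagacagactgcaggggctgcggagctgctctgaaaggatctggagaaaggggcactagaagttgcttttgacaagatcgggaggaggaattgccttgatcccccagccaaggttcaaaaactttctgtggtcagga

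Windows were found for 8 of the 10 genes, with H60b and Cd86 named only. Both strands were searched for 5 motifs. The GC box, GGGCGG, was found in the windows of Icosl, Cd274 and Cd276, 3 of 8, and in 35.7% of all 32851 windows of that length. An IRF-type element, GAAA and GAAA with any 2 bases between, was in 0 of the 8 windows and in 3.44% of all. A STAT-type element, TTCNNNGAA, was in 0 of 8 and in 8.30% of all, and an NF-kappaB-type element, GGG then any 2 bases, TT, any 1 base and CC, in 0 of 8 and in 4.79% of all. The TATA box, TATAAA, was in 1 of the 8 windows, that of Cd80, and in 13.6% of all. The Cd80 match was on the opposite strand and began at position 5 after the start, not before it. No motif of this search overlapped another in these windows. A match is a description of letters, and a missing match covers only these letters in these windows.

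Levels below are log2 signals as deposited and differences are PIM1 minus EV on that scale. A gene was called where limma's adjusted p was under 0.05 (Benjamini-Hochberg over all 22180 genes). By that rule 27.0% of all genes were called, 16.1% higher and 10.9% lower in PIM1 cells. That is 3575 genes higher and 2420 lower, and 4324 and 1558 with the array medians set equal. Among the 9 genes other than H60b 1 was called, Icosl, which was higher. The PIM1 and EV arrays did not overlap for 2 of these 9, Ulbp1 and Icosl, against 43.2% of all genes. Nothing is read from these shares, since the set was chosen in this contrast. The median difference was -0.05 over the 10 genes, as over all genes.

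**Figure D1:**
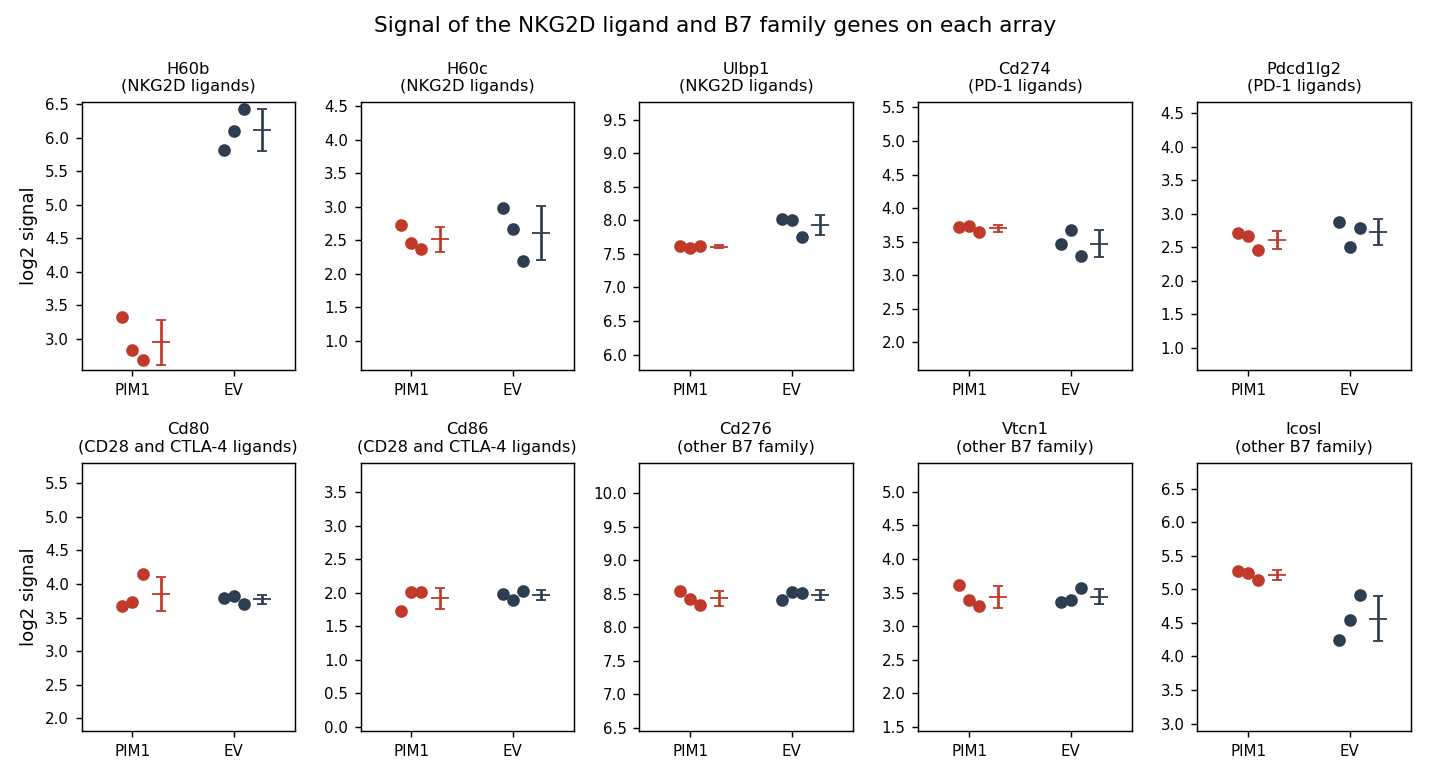
Log2 signal of each of the 10 genes on the 3 PIM1 arrays (red, left) and the 3 EV arrays (dark, right); bars to the right of the points give mean ± SD (n = 3). Every panel spans the same number of log2 units, so heights of differences can be compared between panels. H60b is the panel with the widest gap, and the points of the 2 groups interleave for Cd276, Vtcn1, Cd80, Cd86, H60c and Pdcd1lg2.

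H60b was the NKG2D ligand gene with the large difference. Its signal was 3.33, 2.83 and 2.69 on the PIM1 arrays, against 5.81, 6.10 and 6.43 on the EV arrays. All PIM1 arrays lay below all EV arrays, and on each PIM1 array H60b lay under the median probe set of that array. The means were 2.95 ± 0.34 in PIM1 cells and 6.12 ± 0.31 in EV cells (SD, n = 3 each), a difference of -3.16, or 8.96-fold lower. No detection call was used, so the PIM1 signals hold an unknown share of background and the fold may be understated. In RNA from a whole culture, fewer cells with a transcript and less transcript per cell cannot be told apart.

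Ulbp1, which encodes the ligand MULT1, read 7.62, 7.58 and 7.62 on the PIM1 arrays and 8.02, 8.00 and 7.75 on the EV arrays. The PIM1 arrays all lay below the EV arrays, by a small step. The Ulbp1 difference was -0.32 (95% interval -0.56 to -0.07, limma adjusted p = 0.0628), so it was not called. It passed after quantile normalization (adjusted p = 0.0291), after cyclic loess (0.0298), with a trended and robust variance (0.0172), in a fit on the 11090 brighter genes alone (0.0236) and without EV replicate 3 (-0.40, adjusted p = 0.0303). In 9 of its 14 alternatives Ulbp1 was still not called. Over all of them the adjusted p ran from 0.0172 to 0.187. The highest came with the array medians set equal, where the difference was -0.22.

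H60c, which encodes another H60 ligand known from skin, read 2.72, 2.46 and 2.36 on the PIM1 arrays and 2.98, 2.67 and 2.18 on the EV arrays. The groups overlapped and every array was under its median, so little can be read from this probe set. The H60c difference was -0.10 (95% interval -0.56 to 0.36, limma adjusted p = 0.758). Probe sets of related genes of the H60 and Raet1 families can share signal, and how much they share was not tested.

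The 6 other NKG2D ligand genes looked for, H60a and Raet1a to Raet1e, had no probe set of their own and were not analysed here as genes. A single probe set is annotated to both Raet1d and Raet1e and can be given to neither. It read 6.37, 6.48 and 6.51 on the PIM1 arrays and 7.21, 7.49 and 7.58 on the EV arrays, with no overlap. The difference of this shared probe set was -0.97 (standard error 0.13), a 1.96-fold fall (limma adjusted p = 0.00370 over all 41345 probe sets, of which 16.3% were called). It was chosen after its own values and those of its neighbour H60b were seen, so its adjusted p is a description and no independent support. The fall passed in all 11 alternatives run on it, with differences from -1.10 to -0.87, which does not undo that choice.

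H60b lies between Raet1e and Raet1d in the RefSeq gene order of chromosome 10, so the nearest measured genes around it, with unmeasured genes between some of them, were read as well. To the right of H60b come C920009B18Rik and Gm10825, listed as long non-coding RNAs, on either side of Raet1d. C920009B18Rik fell by 0.91, to 4.22 ± 0.23 in PIM1 cells against 5.13 ± 0.25 in EV cells (limma adjusted p = 0.00434). Gm10825 fell by 0.87, to 3.26 ± 0.02 in PIM1 cells against 4.13 ± 0.02 in EV cells (limma adjusted p = 0.000237). Both were lower on every PIM1 array than on any EV array. Gm10825 lay under the array median on each PIM1 array, so its signal there holds an unknown share of background. Slc2a12, a glucose transporter gene further right, differed by -0.25 and was not called (adjusted p = 0.215). To the left, E030030I06Rik and 4930444G20Rik differed by -0.45 and -0.38 and were not called (adjusted p = 0.145 and 0.167), and both passed without EV replicate 1 (0.0297 and 0.0346). Beyond them Sgk1, a serum-induced kinase gene, rose by 2.06 (adjusted p = 1.35e-05). None of these genes overlaps its measured neighbour in the RefSeq table. Whether they share a cause with H60b was not tested.

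**Figure D2:**
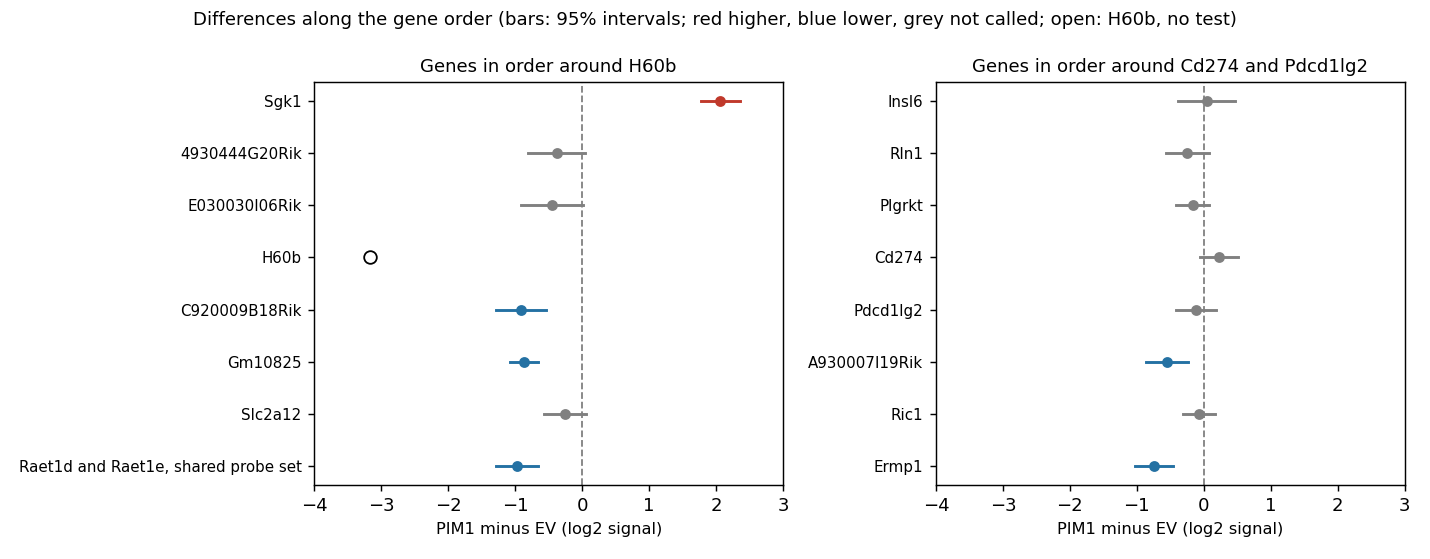
Differences, PIM1 minus EV in log2 signal, of the measured genes in chromosomal order around H60b (left) and around Cd274 and Pdcd1lg2 (right); bars are 95% intervals from the fit, and H60b is an open point without one because it chose the set. Left, H60b at -3.16 is followed by 2 called falls of 0.91 and 0.87, while Sgk1 in the top row rose by 2.06. The shared Raet1d and Raet1e probe set is at -0.97 in the bottom row. Right, Cd274 at 0.23 and Pdcd1lg2 at -0.11 were not called, while A930007I19Rik and Ermp1 fell by 0.55 and 0.74.

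The PD-1 ligand genes were not called. Cd274, the gene of PD-L1, read 3.72, 3.74 and 3.64 on the PIM1 arrays and 3.46, 3.67 and 3.28 on the EV arrays. The groups overlapped through EV replicate 2, and the signals lay close to the array medians of 3.38 to 3.52. The Cd274 difference was 0.23 (95% interval -0.05 to 0.50, limma adjusted p = 0.214). The interval is on the signal, which at this level holds an unknown share of background. Pdcd1lg2, the gene of PD-L2, read 2.71, 2.67 and 2.46 on the PIM1 arrays and 2.88, 2.51 and 2.78 on the EV arrays, all under the array medians. The Pdcd1lg2 difference was -0.11 (95% interval -0.41 to 0.19, adjusted p = 0.565).

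Cd274 and Pdcd1lg2 lie close together on chromosome 19, and the RefSeq record of Cd274 overlaps that of Plgrkt. Of the 3 measured genes to their left, Plgrkt, Rln1 and Insl6, 0 were called by limma and 0 had an unadjusted p under 0.05, with differences between -0.25 and 0.04. To their right A930007I19Rik fell by 0.55 (adjusted p = 0.0188), a call lost without PIM1 replicate 1 or 2 (0.0695 and 0.0749). Ric1 differed by -0.07, and Ermp1, an endoplasmic reticulum peptidase gene, fell by 0.74 (adjusted p = 0.00284).

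Of 14 measured genes known to control PD-L1, 6 rose and 2 fell. That is 57.1% of the 14. All 14 are among the 11090 brighter genes, and in a fit on those alone 9 of the 14 were called, against 53.3% of the brighter genes. Jak2, a kinase of interferon and cytokine receptors, read 9.15, 9.21 and 9.34 on the PIM1 arrays and 7.59, 7.73 and 7.72 on the EV arrays, a rise of 1.55 (limma adjusted p = 2.11e-05). Stat3, a transcription factor downstream of it, rose by 1.32 to 10.24 ± 0.03 in PIM1 cells against 8.92 ± 0.02 in EV cells. The interferon gamma receptor genes Ifngr2 and Ifngr1 rose by 1.13 and 0.68 (adjusted p = 7.87e-05 and 0.00137). The falls were those of Gsk3b, a kinase that marks PD-L1 for degradation (-0.62, adjusted p = 0.00201), and Cmtm4, which protects PD-L1 at the membrane (-0.51, adjusted p = 0.0154). The Cmtm4 call was lost without PIM1 replicate 1 or 2 (adjusted p = 0.0540 and 0.0664).

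Icosl, the gene of ICOS ligand, read 5.27, 5.24 and 5.14 on the PIM1 arrays and 4.24, 4.54 and 4.92 on the EV arrays. The PIM1 arrays were close together and above the EV arrays, which spread more widely. Icosl rose by 0.65 (standard error 0.17, 95% interval 0.27 to 1.03), or 1.57-fold, to 5.21 ± 0.07 in PIM1 cells against 4.57 ± 0.34 in EV cells (SD, n = 3 each; limma adjusted p = 0.0219). The call was lost when EV replicate 2 (adjusted p = 0.0522) or PIM1 replicate 1, 2 or 3 (0.0730, 0.0715 and 0.0546) was left out, while the difference stayed between 0.62 and 0.69 in those 4 fits. Over all its alternatives the Icosl difference lay between 0.49 and 0.82.

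Cd80 and Cd86, whose products engage CD28 and CTLA-4, were not called. Cd80 read 3.68, 3.73 and 4.14 on the PIM1 arrays and 3.79, 3.83 and 3.69 on the EV arrays, with PIM1 replicate 3 alone above the others. The Cd80 difference was 0.08 (95% interval -0.24 to 0.40, limma adjusted p = 0.724). Cd86 read 1.73, 2.01 and 2.01 on the PIM1 arrays and 1.98, 1.88 and 2.03 on the EV arrays, far under the median of every array. The Cd86 difference was -0.05 (95% interval -0.31 to 0.21, adjusted p = 0.791).

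Cd276, the gene of B7-H3, lay well above the array medians in both groups. It read 8.54, 8.43 and 8.33 on the PIM1 arrays and 8.40, 8.53 and 8.51 on the EV arrays, which interleave. The Cd276 difference was -0.05 (95% interval -0.29 to 0.18, limma adjusted p = 0.755), so a signal change of 2-fold in either direction lies outside the interval. Vtcn1, the gene of the inhibitory ligand B7-H4, read 3.62, 3.39 and 3.30 on the PIM1 arrays and 3.36, 3.39 and 3.57 on the EV arrays, near the array medians. The Vtcn1 difference was -0.0031 (95% interval -0.28 to 0.27, adjusted p = 0.988).

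By difference from most negative to most positive the 10 genes ran H60b, Ulbp1, Pdcd1lg2, H60c, Cd276, Cd86, Vtcn1, Cd80, Cd274 and Icosl. From Ulbp1 to Icosl the 95% intervals of neighbours in this order overlapped, and differences between the genes were not tested. The 3 genes whose values, centred on their own means over the 6 arrays, lay nearest to those of H60b were Pbp2 (Euclidean distance 0.528), the cation channel gene Trpc6 (0.625) and Mamdc2 (0.633). Mamdc2 read 3.72 ± 0.04 in PIM1 cells and 6.60 ± 0.16 in EV cells. The distance was taken on the values that chose H60b, so a gene near it must show a like fall, and no link is read from it. Nearest to Icosl lay the adaptor gene Shc2 (distance 0.125), the kinesin gene Kif3c (0.155) and the centromere gene Cenpx (0.160).

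Genes for other ligands of natural killer cell receptors changed in both directions. Of 11 measured, 5 rose and 3 fell, 72.7% against 27.0% of all genes. Of the 11, 9 are among the 11090 brighter genes, and in the fit on those 7 of the 9 were called, against 53.3% of the brighter genes. Icam1, the adhesion ligand of LFA-1, rose by 1.79 to 5.88 ± 0.13 in PIM1 cells against 4.09 ± 0.15 in EV cells (limma adjusted p = 2.30e-05). Cadm1, the ligand of CRTAM, rose by 1.56 and Clec2d, the ligand of the inhibitory receptor NKR-P1B, by 1.23 (adjusted p = 4.46e-05 and 0.000114). The cadherin genes Cdh2 and Cdh1, ligands of the inhibitory receptor KLRG1, fell by 1.49 and 0.94 (adjusted p = 2.36e-05 and 0.00179). With probe sets averaged Cdh1 differed by -0.39 (adjusted p = 0.0283) and Cdh2 by -2.22. Nectin3, whose product binds TIGIT, fell by 0.80 to 5.42 ± 0.11 in PIM1 cells against 6.21 ± 0.30 in EV cells (adjusted p = 0.00684). Another nectin gene of the list, Nectin2, went the other way and rose by 1.31 (adjusted p = 0.000151). H2-T23 rose by 1.51 to 4.41 ± 0.12 in PIM1 cells against 2.89 ± 0.63 in EV cells (adjusted p = 0.00476). Its signal lay under the array median on EV replicates 1 and 3, and EV replicate 2, at 3.62, was above both.

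Among 10 genes for checkpoint ligands outside the B7 genes above and for butyrophilins, 3 rose and 0 fell (30.0%, near the 27.0% of all genes). Lgals9, the gene of galectin-9, a ligand of TIM-3, read 9.42, 9.51 and 9.64 on the PIM1 arrays and 7.57, 7.55 and 7.57 on the EV arrays. Lgals9 rose by 1.96, a 3.89-fold rise (limma adjusted p = 5.37e-06). Cd47, whose product tells macrophages not to engulf a cell, rose by 0.86 to 9.95 ± 0.08 in PIM1 cells against 9.09 ± 0.11 in EV cells (adjusted p = 0.000572). Vsir, the gene of the inhibitory ligand VISTA, rose by 0.70 (adjusted p = 0.0148), a call lost without PIM1 replicate 1 or 2 (0.0512 and 0.0547). Ceacam1, another TIM-3 ligand, differed by 0.45 and was not called (adjusted p = 0.0970), but passed in 5 alternatives, among them quantile normalization (0.0424) and without PIM1 replicate 3 (0.0447).

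Of 14 genes known to control NKG2D ligands or to release them from the cell surface, 6 rose and 3 fell. That is 64.3%. In the fit on the 11090 brighter genes, which hold all 14, 10 of the 14 were called, against 53.3% of the brighter genes. Among the 6 that rose were the protease gene Mmp9, by 1.71 (limma adjusted p = 6.70e-05), Adam17, the sheddase of many surface proteins, by 0.95 (0.000366), and Pdia6, a disulfide isomerase that takes part in the shedding of human MICA, by 0.93 (0.000233). Hdac3, a histone deacetylase, rose by 0.74 to 9.31 ± 0.03 in PIM1 cells against 8.58 ± 0.07 in EV cells (adjusted p = 0.000693). The falls were those of Ezh2, the methyltransferase of the Polycomb complex (-0.63, adjusted p = 0.00219), E2f3, a cell cycle transcription factor (-0.54, 0.00982), and the DNA damage kinase Atr (-0.64, 0.00254). When the probe sets of Atr were averaged its difference was -0.22 and not called (adjusted p = 0.170). Of the other E2F genes listed, E2f1 rose by 0.69 (adjusted p = 0.000860) and E2f2 differed by -0.47 and was not called (0.0804).

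**Figure D3:**
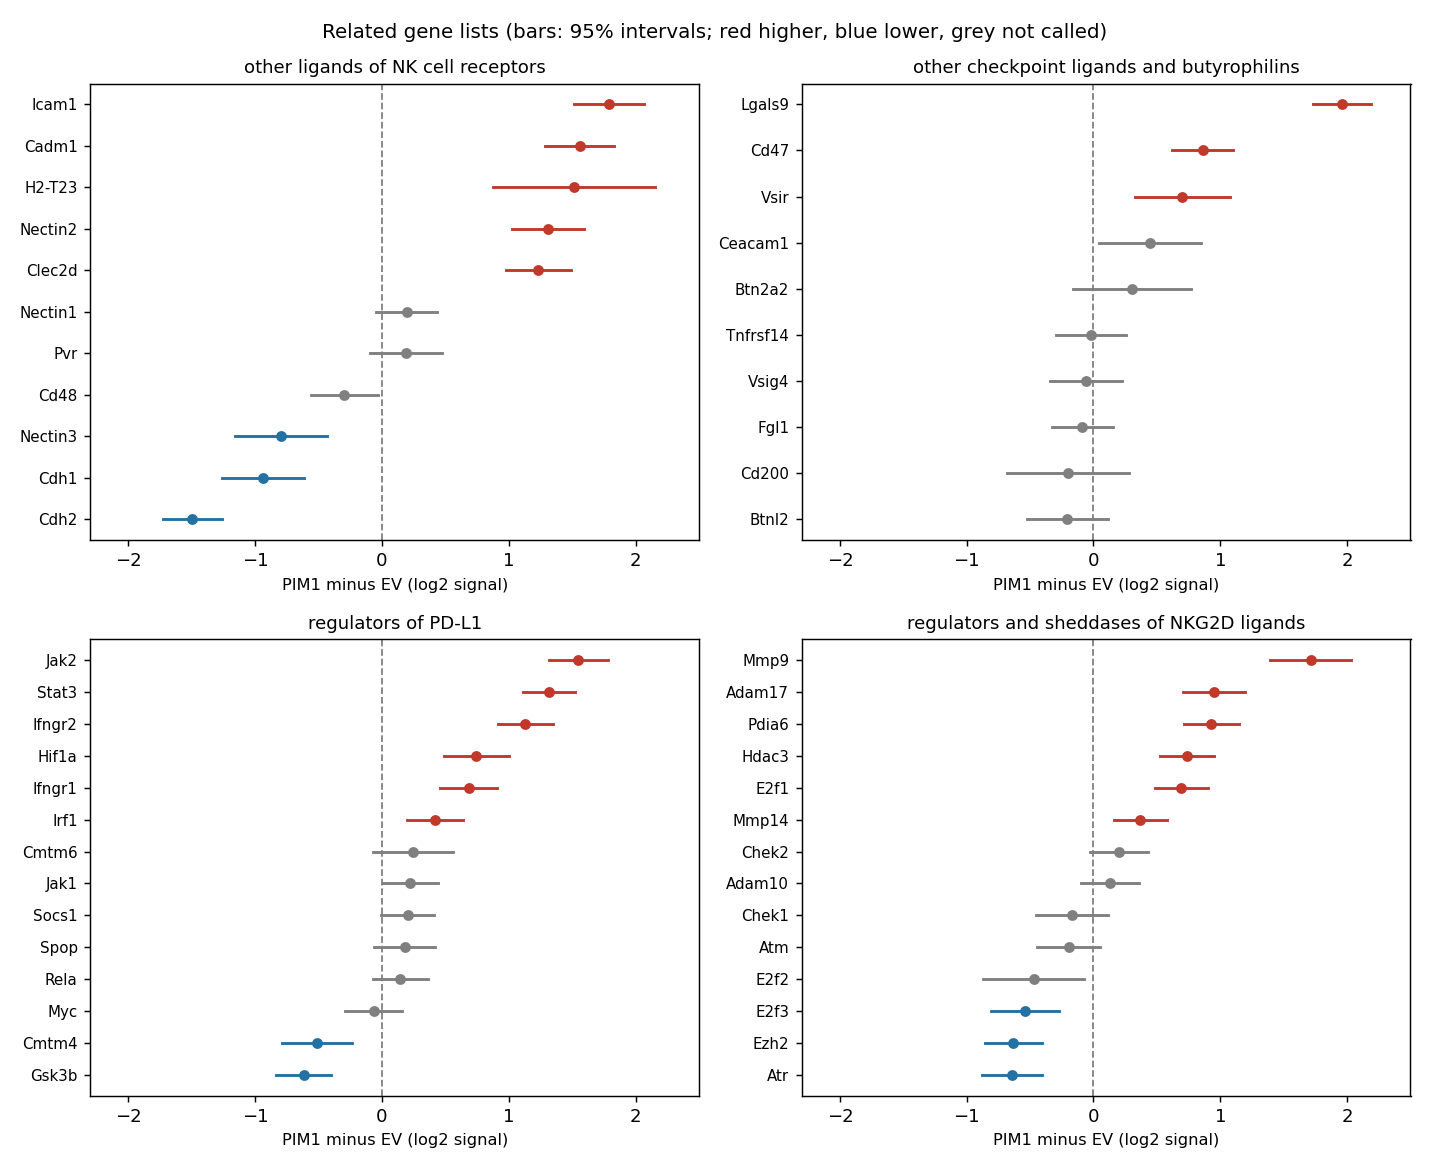
Differences, PIM1 minus EV in log2 signal, with 95% intervals, for the genes of 4 related lists, sorted within each panel. Red points were called higher, blue lower and grey not called; Lgals9, Icam1, Mmp9 and Jak2 head the panels, and Cdh2 at -1.49 is the lowest point.

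The receptors of these ligands and the markers of leukocytes, cells that carry B7 proteins themselves, were mostly at low signal. Of 8 receptor genes 1 rose, 0 fell and 7 were not called (12.5% called, against 27.0% of all genes), and 5 lay under the median on every array. Icos, the receptor of ICOS ligand, rose by 0.58 to 3.57 ± 0.19 in PIM1 cells against 2.98 ± 0.14 in EV cells (limma adjusted p = 0.0125), a call lost without PIM1 replicate 2 (0.0553). Klrk1, the gene of NKG2D, read 1.72 to 1.93 on the PIM1 arrays and 1.96 to 2.29 on the EV arrays (adjusted p = 0.131). Hcst and Ctla4 differed by -0.49 and -0.30 and were not called (adjusted p = 0.0794 and 0.124), and Ctla4 passed without EV replicate 2 (0.0240).

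Of 20 leukocyte markers 1 rose and 2 fell (15.0%, against 27.0% of all genes). Their summed log2 signal was 57.4 to 60.3 on the PIM1 arrays and 61.3 to 64.5 on the EV arrays, and 12 of 20 lay under the median on every array. The array medians were also lower on the PIM1 arrays, 3.38 to 3.42 against 3.49 to 3.52 on the EV arrays. The sums were not adjusted for that offset, so no lower leukocyte content is read from them. Ptprc, the pan-leukocyte gene, read 1.87 ± 0.13 in PIM1 cells and 2.07 ± 0.15 in EV cells. Cd14 rose by 2.20 and Csf1r fell by 1.35 (limma adjusted p = 6.85e-05 and 0.000210), and Klrb1c fell by 0.53 at low signal (0.0172), a call lost after quantile normalization (0.0702) and cyclic loess (0.0633) and without PIM1 replicate 2 or 3 (0.0634 and 0.0611). Cd3d differed by -0.46 (adjusted p = 0.0889).

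The arrays themselves were alike within groups, with correlations of 0.994 to 0.996 among PIM1 and 0.990 to 0.991 among EV arrays, and 0.963 to 0.967 between them. Pim1 read 7.11, 6.89 and 6.97 on the PIM1 arrays and 5.26, 6.25 and 5.23 on the EV arrays, a rise of 1.41 (limma adjusted p = 0.00455), with EV replicate 2 above the other EV arrays. The Pim1 difference was 1.04 with probe sets averaged. The labels do not say from which species the insert comes. Of 5 epithelial markers measured 2 fell, Krt18 and Cdh1 (40.0%, against 27.0% of all genes). Their summed log2 signal over all 5 was 18.5 to 19.0 on PIM1 and 24.1 to 25.0 on EV arrays. Krt18, a keratin of simple epithelium, fell by 4.24 to 4.90 ± 0.12 in PIM1 cells against 9.14 ± 0.06 in EV cells (limma adjusted p = 1.86e-07). The Krt18 difference was -2.93 with probe sets averaged, so the size of this fall depended on the probe set rule. Krt8, its partner keratin, read 4.65 ± 0.15 in PIM1 cells and 4.73 ± 0.10 in EV cells and was not called (adjusted p = 0.654). Cdh1 also lay above the array medians on every array, and its fall was 0.94, or 0.39 with probe sets averaged. Epcam and Krt14 lay under the median on every array and were not called. Of 9 fibroblast markers 8 rose and 0 fell, 88.9% against 27.0% of all genes. In the fit on the brighter genes 53.3% of genes were called, and the fibroblast markers were not counted in that fit. Dcn rose by 5.48, Pdgfra by 4.70, Dpt by 2.58 and Fbln1 by 1.94. The summed signal of the fibroblast markers was 74.2 to 74.8 on PIM1 and 56.0 to 56.7 on EV arrays. Of 5 endothelial markers 0 were called by limma, against 27.0% of all genes (1 of the 5 had an unadjusted p under 0.05). These marker shifts move with H60b and Icosl across the groups, and their part in those differences was not tested.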

How the data were processed

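The deposited values, taken as log2 signals, are 1 number per probe set and array. Per the submitters' processing notes they were made with Affymetrix Expression Console. The sources used here do not give the log base, on which linear folds rest, nor the background correction, summarization or normalization. The values were kept as deposited. Array number (3 per group) limits the precision.

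Groups came from the sample titles. Genes were named from the platform annotation: 23521 of 41345 probe sets carried 1 symbol, 1814 several and 16010 none, and the brightest probe set stood for a gene. RefSeq (GRCm38.p6) gave the gene order and the promoter windows. PIM1 was compared with EV in limma 3.58.1 (R 4.3.3, lmFit and eBayes, two-sided, Benjamini-Hochberg), checked on simulated data with 200 changed genes. The 10 genes and all lists were chosen with earlier results of these data known. Named are the 10 genes, Pim1, 3 measured neighbours on each side of H60b and of Cd274 and Pdcd1lg2, 3 nearest profiles, and of each list the 4 genes with the smallest p plus calls against its main direction. The rule's endothelial genes and a few markers are given by count only. Ptprc, Krt8, Nectin2, H2-T23, E2f1, E2f2 and the probe set shared by Raet1d and Raet1e were chosen after their values were seen, as were the 3 promoter windows. Alternatives were other normalizations, variances, probe set rules and filters, the replicate block (on array numbers) and leaving out each array.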

Additional observations from a re-analysis of the deposited data

How the results depend on the processing

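Leaving out 1 array each moved the number of the 10 genes called between 1 and 3, against 2 in the full fit. H60b, which chose the set, is counted in each. The number of 8 receptor genes called moved between 0 and 2, against 1. Over all genes 18.8% to 24.2% were called when 1 array was left out, against 27.0% in the full fit. These fits have fewer arrays, and why the counts moved was not tested. Cd274, Pdcd1lg2, Cd80, Cd86, Cd276, Vtcn1 and H60c were not called in any alternative in which they were tested, and the differences of all of these but Cd274 took the other sign in at least 1 alternative. Of 61 other genes named by the rule 47 stayed on the same side of the threshold in every alternative, 14 did not, and 0 called ones turned direction. With the replicate block 2 of the 10 genes and 5321 of all genes were called, against 2 and 5995 without it. Arrays with the same number did not deviate together (correlations of 0.056, -0.031 and 0.009), so the numbers are not taken as pairs. Of the 10 genes 4 are among the brighter genes, and a signal near background limits what a fall of the others could show. The count of other NKG2D ligands called has no value, and that of receptors none among the brighter genes, because no such gene was left to test.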
